A study of Mus musculus with 8 samples.

Results

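Among the 15880 genes with a normalized value, 4 complement genes are described here in 4 populations of neonatal bone stroma: the protease gene *C1s*, the gene of its inhibitor *Serping1*, and the genes of the components *C4b* and *C3*. They were chosen by their measured values in these populations, so their levels are given as a description, without a test, and support nothing by themselves. All 4 had values over 2 in at least 2 libraries. The working name for the group ties them to fibroblast-like stroma, which was checked against marker genes below.

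Cells came from C57BL/6 pups heterozygous for the *Nes-Gfp* transgene, in which regulatory elements of the rat nestin gene drive the green fluorescent protein (GFP), on postnatal day 1. Bones of 3 pups per pool were crushed and digested with collagenase, and libraries with equal replicate numbers were taken to share a pool. Cells lacking CD45 (blood cells), CD31 (endothelium) and Ter119 (erythroid cells) were sorted by flow cytometry, 15000 to 80000 in number. GFP and the surface receptor Pdgfrα split them into GFP- Pdgfrα+, GFP+ Pdgfrα+, GFP+ Pdgfrα- and GFP- Pdgfrα- cells, all untreated and of the same genotype, with 2 libraries each. RNA was amplified to cDNA, and the libraries held 3221217 to 5302762 reads on genes. A value is the number of reads, scaled by the authors to 1e6 of an effective library size, and 3 reads correspond to 0.825 to 1.04.

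Complement is a set of plasma and cell surface proteins that mark microbes and dying cells for removal. In the classical pathway the recognition protein C1q carries the proteases C1r and C1s, and active C1s cleaves C4 and C2 to build the enzyme that cleaves C3. C3 is the point where the classical, lectin and alternative pathways meet. The C1 inhibitor encoded by *Serping1* blocks C1r and C1s, and the liver is the main source of most of these proteins in plasma, although fibroblasts and other stromal cells also make some of them.

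*Pdgfra*, whose product was used for sorting, had values of 839 and 794 in GFP- Pdgfrα+, 733 and 754 in GFP+ Pdgfrα+, 18.1 and 10.4 in GFP+ Pdgfrα- and 3.30 and 4.36 in GFP- Pdgfrα- cells. All 12 fibroblast markers listed (collagens, small proteoglycans and surface antigens such as *Cd34*) had values. Their summed value was 32434 and 29921 in GFP- Pdgfrα+, 62322 and 49205 in GFP+ Pdgfrα+, 4731 and 4006 in GFP+ Pdgfrα-, and 606 and 731 in GFP- Pdgfrα- cells. The sum was carried by the collagen gene *Col1a1*, which reached 51185 in GFP+ Pdgfrα+ cells. Without it the order of the Pdgfrα+ populations turned, with sums of 15593 and 14569 in GFP- Pdgfrα+ against 11138 and 10894 in GFP+ Pdgfrα+ cells. Of the 12 markers, 8 had both GFP- Pdgfrα+ libraries above both GFP+ Pdgfrα+ libraries (24.6% of all genes), 2 were below (23.4%) and 2 overlapped, with a median log2 difference of 0.47 against -0.00 over all genes. Between these populations 2 markers were called higher (2.13% of all), 1 lower (3.22%) and 9 neither way, and all 12 were called higher when GFP- Pdgfrα+ cells were set against GFP- Pdgfrα- (32.9%) or GFP+ Pdgfrα- cells (14.3%). Fibroblast markers thus were high in both Pdgfrα+ populations. Other lists also differed between the Pdgfrα+ populations. Tendon markers had sums of 3854 and 3906 in GFP- Pdgfrα+ against 655 and 665 in GFP+ Pdgfrα+ cells, and chondrocyte markers 534 and 1868 against 283 and 362. Without the collagen gene *Col2a1* the chondrocyte sums were 261 and 370 against 108 and 81.6. Called higher in GFP- Pdgfrα+ cells were 6 of 6 tendon and 2 of 5 chondrocyte markers (2.13% of all genes). Osteoblast markers (192 and 154 against 3744 and 2568), pericyte and smooth muscle markers (369 and 385 against 509 and 425) and Schwann cell markers (12.7 and 22.4 against 91.6 and 56.2) had lower sums in GFP- Pdgfrα+ cells. Called lower there were 6 of 6 osteoblast, 4 of 6 pericyte and smooth muscle and 3 of 5 Schwann cell markers (3.22% of all genes). In the bulk samples described here, fewer cells of a type and less RNA per cell cannot be told apart.

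*C1s* encodes the protease that cleaves C4 and C2. Its values were 193 and 210.4 in GFP- Pdgfrα+, 211 and 203 in GFP+ Pdgfrα+, 20.3 and 26.6 in GFP+ Pdgfrα- and 3.59 and 4.83 in GFP- Pdgfrα- cells. The Pdgfrα+ populations overlapped, at means of 202 ± 12.1 and 207 ± 5.49 (SD, n = 2 libraries each). Both lay above GFP+ Pdgfrα- cells, at 23.5 ± 4.49 (SD, n = 2), and these lay above GFP- Pdgfrα- cells, at 4.21 ± 0.880 (SD, n = 2), without overlap. The mean in GFP- Pdgfrα+ cells was 8.61-fold that of GFP+ Pdgfrα- cells and 47.9-fold that of GFP- Pdgfrα- cells. *C1s* was thus not highest in GFP- Pdgfrα+ cells alone.

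The gene model of *C1s* (ENSMUSG00000038521) covers positions 124480363 to 124586998 of chromosome 6 on the minus strand of NCBIM37, with 20 exon blocks. It overlaps *Gm5077*, a second C1s-like gene on the same strand, by 205 exonic bases. On the other strand it overlaps *Gm16567*, a processed transcript without values here, by 576 exonic bases. The model of *C1rb*, also without values, overlaps it on that strand with 0 shared exonic bases. The part of reads from *Gm16567* in the values of *C1s* was not tested. Of the 50-base stretches within *C1s* exons, 25.1% also occur in exons of *Gm5077*, and reads from them cannot be assigned to a single copy. *Gm5077* itself had at most 9 reads in any library, against at least 707 reads of *C1s* in each Pdgfrα+ library.

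*Serping1* encodes the C1 inhibitor, a serpin that also restrains the contact proteases of blood clotting and kinin release. It measured 324 and 291 in GFP- Pdgfrα+, 262 and 300.0 in GFP+ Pdgfrα+, 213 and 235 in GFP+ Pdgfrα- and 6.18 and 7.19 in GFP- Pdgfrα- cells. It was therefore high in 6 libraries and low only in the 2 from GFP- Pdgfrα- cells. The Pdgfrα+ populations overlapped (308 ± 23.4 and 281 ± 26.7, SD, n = 2 each). GFP+ Pdgfrα- cells, at 224 ± 15.5 (SD, n = 2), lay below both without overlap, although the mean of GFP- Pdgfrα+ cells was only 1.38-fold theirs. Against GFP- Pdgfrα- cells, at 6.68 ± 0.719 (SD, n = 2), it was 46.0-fold higher. The gene (ENSMUSG00000023224) lies at positions 84605544 to 84615601 of chromosome 2, minus strand, in 8 exon blocks. The working name does not cover its level in GFP+ Pdgfrα- cells, where the fibroblast markers summed to 4731 and 4006, below both Pdgfrα+ populations.

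*C4b* encodes the fourth component, which C1s cleaves and which then binds covalently to nearby surfaces. Values were 129 and 88.7 in GFP- Pdgfrα+, 23.3 and 12.8 in GFP+ Pdgfrα+, 2.79 and 4.24 in GFP+ Pdgfrα-, and 0.144 and 2.24 in GFP- Pdgfrα- cells, where replicate 1 had 0 reads and replicate 2 had 9. Each population lay above the next in this order without overlap, at means of 109 ± 28.3, 18.1 ± 7.46, 3.52 ± 1.03 and 1.19 ± 1.48 (SD, n = 2 each). The mean of GFP- Pdgfrα+ cells was 6.02-fold that of GFP+ Pdgfrα+ cells and 30.9-fold that of GFP+ Pdgfrα- cells. Among GFP- Pdgfrα- cells its SD exceeded its mean, so no fold is given against them.

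*C4b* (ENSMUSG00000073418) occupies positions 34865325 to 34880827 of chromosome 17 on the minus strand, in 40 exon blocks. Its near-identical copy *C4a* lies 65210 bases away on the same strand, and 33.0% of the 50-base stretches within *C4b* exons recur in *C4a* exons. *C4a* had 16 and 5 reads in GFP- Pdgfrα+ cells, where *C4b* had 510 and 298, and at most 8 reads elsewhere. How the quantification divided reads between these copies was not tested.

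*C3* encodes the central component, whose cleavage starts opsonization on all pathways. It reached 85.3 and 46.2 in GFP- Pdgfrα+, 19.2 and 7.91 in GFP+ Pdgfrα+, 12.02 and 1.67 in GFP+ Pdgfrα- and 20.5 and 4.60 in GFP- Pdgfrα- cells. GFP- Pdgfrα+ cells lay above all other libraries, at 65.8 ± 27.7 (SD, n = 2), which was 4.85-fold the mean of GFP+ Pdgfrα+ cells, and 8.32-fold without GFP+ Pdgfrα+ replicate 1. The other populations overlapped one another, at 13.6 ± 7.98, 6.85 ± 7.32 and 12.6 ± 11.3 (SD, n = 2 each), a spread that holds the difference between replicates described below. Within each replicate, GFP+ Pdgfrα+ and GFP- Pdgfrα- cells both lay above GFP+ Pdgfrα- cells. *C3* was the only one of the 4 genes that was not lowest in GFP- Pdgfrα- cells. It (ENSMUSG00000024164) lies at positions 57343397 to 57367559 of chromosome 17, minus strand, in 41 exon blocks.

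The value of *C3* was also higher in replicate 1 in all 4 populations, by ratios to replicate 2 of 1.85 in GFP- Pdgfrα+, 2.43 in GFP+ Pdgfrα+, 7.19 in GFP+ Pdgfrα- and 4.47 in GFP- Pdgfrα- cells. This was noticed after the values were seen. The replicate number was taken to mark a pool of pups, and 1120 of 15880 genes (7.05%) were higher in replicate 1 in all populations. *C4b* was higher in replicate 1 in the Pdgfrα+ populations, by ratios of 1.45 in GFP- Pdgfrα+ and 1.82 in GFP+ Pdgfrα+ cells, and lower in replicate 1 in the others, where it had at most 16 reads. Ratios of *C1s* and *Serping1* lay between 0.743 and 1.11. As the 4 genes were chosen by their values, no test of these ratios is given. By size alone, the log2 difference of *C3*, replicate 1 minus replicate 2, was 1.57, rank 6 from the top of 15880 genes. Between the replicates 3 genes (0.0189% of all) were called, and all were higher in replicate 2. They were *Xist*, the RNA that silences an X chromosome in female cells, the lubricin gene *Prg4* and the heat shock gene *Hspa1a*. *Xist* lay between 2.90 and 11.3 in the libraries of replicate 1 and between 868 and 1379.7 in those of replicate 2. The part of the sex of the pups in the difference of *C3* was not tested. It cannot be told apart here from other differences between the replicates, because *Xist* divided the libraries by replicate number.

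**Figure D1:**
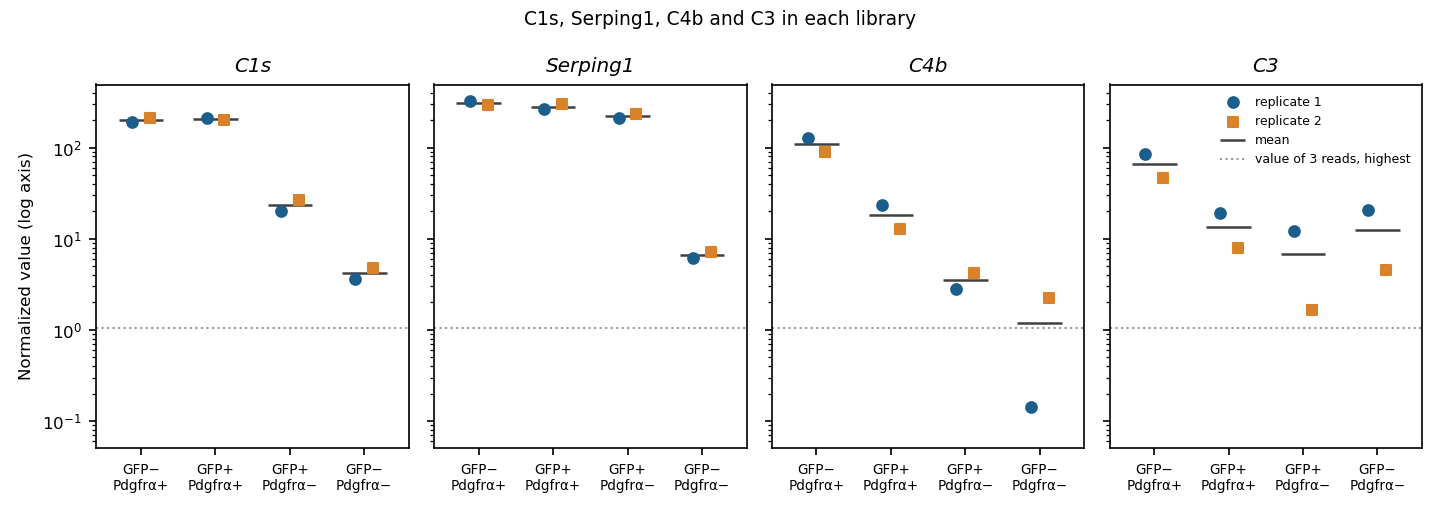
Normalized values of *C1s*, *Serping1*, *C4b* and *C3* (log axis) in the 4 populations, with a point for each replicate, a line for the mean and a dotted line at the highest value of 3 reads in any library, 1.04. *C1s* and *Serping1* overlap between the Pdgfrα+ populations, whereas *C4b* and *C3* are highest in GFP- Pdgfrα+ cells.

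In short, both libraries of GFP- Pdgfrα+ cells exceeded the other 6 for *C4b* and *C3*, 2 of the 4 genes. Of all genes, 11.8% did so, and since the genes were chosen on this contrast nothing is read from the count. All 4 were higher in GFP- Pdgfrα+ than GFP- Pdgfrα- cells without overlap, as were 44.8% of all genes. In the latter libraries, 27.2% and 29.1% of reads came from *mt-Rnr2*, a ribosomal RNA of mitochondria, against 10.8% and 10.8% in GFP- Pdgfrα+ cells, and the median values of genes were 8.19 and 8.61 against 11.98 and 11.7. The share from *mt-Rnr2* was 17.6% and 15.6% in GFP+ Pdgfrα- cells, and 9.52% and 10.3% in GFP+ Pdgfrα+ cells. The part of these shares and medians in the differences was not tested. Levels of different genes were compared per kilobase of exon. In GFP- Pdgfrα+ cells the value per kilobase was 132 ± 10.1 for *Serping1*, 57.8 ± 3.48 for *C1s*, 19.1 ± 4.97 for *C4b* and 12.8 ± 5.40 for *C3* (SD, n = 2 each). The inhibitor gene was thus the highest of the 4 per kilobase, and *C4b* lay above *C3* in both libraries (22.6 against 16.6 and 15.6 against 8.999). The ratio of *Serping1* to *C1s* per kilobase was 2.52 and 2.08 in GFP- Pdgfrα+, 1.86 and 2.21 in GFP+ Pdgfrα+ and 2.58 and 2.23 in GFP- Pdgfrα- cells. In GFP+ Pdgfrα- cells it was 15.8 and 13.2, since *C1s* was low there and *Serping1* was not. The ratio of *C4b* to *C1s* per kilobase was 0.408 and 0.258 in GFP- Pdgfrα+ and 0.0677 and 0.0385 in GFP+ Pdgfrα+ cells, so the substrate gene and the protease gene did not keep a fixed ratio between the Pdgfrα+ populations.

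The genes with the most similar course over the 8 libraries were sought among 10580 genes with a mean of at least 10 in some population, by Pearson's r of log2(value + 1). This is a description, because the 8 libraries hold only 4 populations. For *C1s* they were *Hhip*, which binds hedgehog ligands (r = 0.999), *Sdk2*, an adhesion molecule gene (0.998), *Pcolce*, an enhancer of procollagen processing (0.998), *Osmr*, a receptor subunit for oncostatin M (0.998), and *Colec12*, a collectin of the complement list (0.997). *Hhip* measured 51.1 and 61.0 in GFP- Pdgfrα+, 62.6 and 64.8 in GFP+ Pdgfrα+ cells, and at most 6.30 in the other 4 libraries. For *Serping1* they were *Gas7*, *Rhbdf1*, *Sgce*, *Camk2n1* and *Zim1*, each with r = 0.999, of which *Sgce* encodes a sarcoglycan and *Camk2n1* an inhibitor of a calcium-dependent kinase. *Gas7* had 329 and 302 in GFP- Pdgfrα+, 238 and 251 in GFP+ Pdgfrα+, 166 and 210.1 in GFP+ Pdgfrα-, and 1.87 and 2.48 in GFP- Pdgfrα- cells.

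The closest genes to *C4b* were *Mecom*, a transcription factor gene (0.993), *Mov10*, an RNA helicase gene (0.990), *Lbp*, which encodes the lipopolysaccharide-binding protein of the acute phase (0.988), *Plcd3* (0.980) and *Iqsec1* (0.980). *Lbp* measured 50.6 and 38.2 in GFP- Pdgfrα+, 18.6 and 16.2 in GFP+ Pdgfrα+, 3.76 and 4.76 in GFP+ Pdgfrα-, and 2.15 and 4.13 in GFP- Pdgfrα- cells, the same order of populations as *C4b*. *C3* had looser neighbours, *Amz2* (0.973), *Dnajc30* (0.947), *Klhdc8b* (0.933), *Pgrmc1* (0.920) and *Ccdc53* (0.917). The first of them varied far less than *C3* itself, from 30.2 to 47.3. Among the 4 genes, r was highest between *C4b* and *C1s* (0.887) and lowest between *C3* and *Serping1* (0.224).

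Of 54 other complement genes listed, 30 had values and were tested with all 15880 genes. The other 24 were not analysed here, among them the C1q chains, the terminal pathway genes, *Hc* (the fifth component) and *Cfi*. Calls are genes with limma-adjusted p of 0.05 or less, on log2(value + 1), a scale that understates the change of low genes. The comparisons share populations and are not independent of one another. Against GFP+ Pdgfrα+ cells, 1 complement gene was higher in GFP- Pdgfrα+ cells (2.13% of all genes were) and 2 were lower (3.22% of all). The median log2 difference was -0.26 over the 30 genes and -0.00 over all genes. Without GFP- Pdgfrα+ replicate 2 or without GFP+ Pdgfrα+ replicate 2 the count fell from 3 to 1. Against GFP- Pdgfrα- cells, 8 were higher (32.9% of all genes) and 8 lower (26.8%), with a median of 0.52 against 0.17 over all genes. Against GFP+ Pdgfrα- cells, 7 were higher (14.3% of all) and 6 lower (13.5%), with a median of 0.19 against -0.03. Between GFP+ Pdgfrα+ and GFP+ Pdgfrα- cells, 9 were higher (13.1% of all) and 2 lower (11.1%), with a median of 0.44 against -0.02. This last count of 11 fell to 7 without GFP+ Pdgfrα+ replicate 1, to 6 without GFP+ Pdgfrα- replicate 1 and to 7 without GFP+ Pdgfrα- replicate 2. The change with Pdgfrα differed between GFP- and GFP+ cells for 13 of the 30 (44.3% of all genes). Centring each library on its median moved the all-gene median by -0.45 in the comparison with GFP- Pdgfrα- cells, where the calls became 3913 higher and 5720 lower in place of 5226 and 4250. It moved that of the difference of the Pdgfrα contrasts by -0.43, with 2989 higher and 4427 lower in place of 3999 and 3032. Directions against GFP- Pdgfrα- cells therefore depend on the scaling for genes with small differences. Quantile normalization also turned the balance of calls in the comparisons with GFP+ Pdgfrα- cells, as given below.

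Of the recognition proteins and proteases, 7 of 16 listed had values. None was called between the Pdgfrα+ populations, where 2.13% of all genes were called higher and 3.22% lower. *C1ra* encodes C1r, the protease that activates C1s, and lies 6905 bases from the *C1s* model on the other strand. It measured 61.6 and 50.04 in GFP- Pdgfrα+, 41.8 and 46.4 in GFP+ Pdgfrα+, 3.52 and 7.07 in GFP+ Pdgfrα-, and 1.01 and 0.118 in GFP- Pdgfrα- cells, at 3 and 0 reads. Like *C1s*, it was high in the Pdgfrα+ populations. Between them its log2 difference was 0.33 (SE 0.38, adjusted p = 0.712). Against GFP+ Pdgfrα- cells it was 3.23 (SE 0.38, adjusted p = 5.55e-05), and 2.66 to 3.79 over the alternatives. *Colec12*, a membrane collectin that binds sugars and modified lipoproteins, had 211 and 211 in GFP- Pdgfrα+, 276 and 254 in GFP+ Pdgfrα+, 39.9 and 41.5 in GFP+ Pdgfrα-, and 8.19 and 10.5 in GFP- Pdgfrα- cells. It was called higher in GFP- Pdgfrα+ than GFP+ Pdgfrα- cells (log2 difference 2.35, SE 0.16, adjusted p = 7.11e-07) and than GFP- Pdgfrα- cells (4.37, SE 0.16, adjusted p = 5.81e-10).

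The other genes of the recognition group were low. *Colec10*, a secreted collectin gene, had 4.005 and 11.4 in GFP+ Pdgfrα+ cells and 0 reads in both GFP+ Pdgfrα- libraries, at least 8.53-fold higher in the former against the value of 3 reads, or 4.45-fold without the second of their libraries (log2 difference 2.81, SE 0.55, adjusted p = 0.00274). DESeq2 on the recovered reads did not call it (adjusted p = 0.333, 0.00227 to 0.333 over the alternatives). *Masp1*, the lectin pathway protease gene, had 2.40 and 1.34 in GFP- Pdgfrα+ cells and 0 reads in both GFP+ Pdgfrα- libraries, a call (adjusted p = 0.0342) that was lost without either library of GFP- Pdgfrα+ cells (adjusted p = 0.184 without replicate 1 and 0.0564 without replicate 2) or of GFP+ Pdgfrα- cells (0.133 and 0.122), with quantile normalization (0.069) or with DESeq2 (0.0846), 6 of 13 alternatives with a test. *Colec11* was detected above 3 reads only in GFP+ Pdgfrα- cells, at 1.34 and 2.70, and its call as lower in GFP- Pdgfrα+ cells (adjusted p = 0.025) was lost without GFP- Pdgfrα+ replicate 1 (0.0594) or 2 (0.124) or GFP+ Pdgfrα- replicate 2 (0.144), and with edgeR (0.0985).

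Among convertase components, 5 of 6 listed had values. *Cfb* encodes factor B, the alternative pathway partner of C3. It measured 18.8 and 11.1 in GFP- Pdgfrα+, 3.73 and 1.29 in GFP+ Pdgfrα+, 0.607 and 2.96 in GFP+ Pdgfrα-, and 1.58 and 1.77 in GFP- Pdgfrα- cells. The GFP- Pdgfrα+ libraries exceeded the other 6. *Cfb* was the complement gene called higher in GFP- than in GFP+ cells among Pdgfrα+ populations (log2 difference 2.23, SE 0.52, adjusted p = 0.0278). That call was lost without GFP- Pdgfrα+ replicate 1 (adjusted p = 0.221) or 2 (0.0948) or GFP+ Pdgfrα+ replicate 2 (0.169), and with a pseudocount of 0.1 (0.103), with log2 differences of 1.71 to 2.76 and adjusted p = 0.0198 to 0.221 over all alternatives. The calls against GFP- Pdgfrα- cells (2.54, SE 0.52, adjusted p = 0.00112) and GFP+ Pdgfrα- cells (2.62, SE 0.52, adjusted p = 0.00257) held in every alternative with a test.

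*C2*, the second substrate of C1s, had 7.94 and 2.82 in GFP- Pdgfrα+, 12.01 and 8.48 in GFP+ Pdgfrα+, 1.82 and 2.70 in GFP+ Pdgfrα-, and 0.144 and 1.30 in GFP- Pdgfrα- cells. It was called higher in GFP- Pdgfrα+ than GFP- Pdgfrα- cells (1.85, SE 0.50, adjusted p = 0.00714), a call lost without replicate 1 of the former (0.0894) or of the latter (0.0739). Its call between the GFP+ populations (1.78, SE 0.50, adjusted p = 0.023) was lost without any single library of them (adjusted p = 0.0536 to 0.155), with a pseudocount of 0.1 (0.103) and with DESeq2 (0.0598). *Cfd*, the gene of the protease factor D, ran the other way, at 0.882 and 0.743 in GFP- Pdgfrα+, 0.967 and 1.29 in GFP+ Pdgfrα+, 6.92 and 3.47 in GFP+ Pdgfrα- and 4.45 and 2.24 in GFP- Pdgfrα- cells. It was called lower in GFP- Pdgfrα+ than GFP+ Pdgfrα- cells (-1.72, SE 0.43, adjusted p = 0.0107), which was lost without GFP- Pdgfrα+ replicate 1 (0.0511) or 2 (0.0663) or GFP+ Pdgfrα- replicate 1 (0.108), and with DESeq2 (0.0587). *Cfp*, which encodes properdin, the stabilizer of the alternative convertase, had 4.41 and 7.28 in GFP- Pdgfrα+ cells and 3 reads in each GFP- Pdgfrα- library (1.81, SE 0.38, adjusted p = 0.00143). *C4a* was not called in any comparison.

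Of 8 fluid-phase regulators listed, 3 had values. *Clu*, the gene of clusterin, a chaperone that restrains the terminal complex, had 23.3 and 27.5 in GFP- Pdgfrα+, 14.2 and 8.48 in GFP+ Pdgfrα+, 5.22 and 2.96 in GFP+ Pdgfrα-, and 1.01 and 2.48 in GFP- Pdgfrα- cells. It was 6.21-fold higher in GFP- Pdgfrα+ than GFP+ Pdgfrα- cells (2.41, SE 0.41, adjusted p = 0.000983). *Vtn*, the vitronectin gene, was lower in the former (2.40 and 0.148) than in the latter (5.71 and 13.2; adjusted p = 0.00818), a call lost without GFP- Pdgfrα+ replicate 2 (0.103) or GFP+ Pdgfrα- replicate 2 (0.0999).

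Of 8 membrane regulators, 7 had values. *Cd55*, which encodes decay accelerating factor, measured 126 and 125 in GFP- Pdgfrα+, 63.1 and 84.9 in GFP+ Pdgfrα+, 8.13 and 5.53 in GFP+ Pdgfrα- and 88.6 and 58.8 in GFP- Pdgfrα- cells. It was low only in GFP+ Pdgfrα- cells, below GFP- Pdgfrα+ cells by a factor of 18.4 (log2 difference 4.03, SE 0.24, adjusted p = 2.51e-07). *Cd59a* and *Cd59b* encode blockers of the terminal complex. *Cd59a* was at 63.3 and 62.4 in GFP- Pdgfrα- cells, 13.3-fold above the 3.66 and 5.79 of GFP- Pdgfrα+ cells (-3.51, SE 0.41, adjusted p = 1.27e-05). *Cd59b* was at 11.1 and 11.4 against 3.66 and 4.60 (-1.26, SE 0.38, adjusted p = 0.0133), a call lost without GFP- Pdgfrα+ replicate 1 (0.0737) or GFP- Pdgfrα- replicate 1 (0.0512) or 2 (0.0587), and with DESeq2 (0.0521). *Cr1l*, the gene of the rodent regulator Crry, varied least, from 28.4 to 69.7 over the libraries.

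*Cr1l* was called higher in GFP- Pdgfrα+ (57.1 and 45.9) than in GFP+ Pdgfrα- cells (31.7 and 28.4; log2 difference 0.75, SE 0.20, adjusted p = 0.0129), which was lost without replicate 1 of the former (0.122) or replicate 2 of the latter (0.0893). *Csmd1*, a large adhesion-like regulator gene, had 10.1 and 10.2 in GFP+ Pdgfrα- and 2.40 and 0.446 in GFP- Pdgfrα+ cells (-2.33, SE 0.48, adjusted p = 0.00303). *Susd4*, whose product binds C1q, was below 4 in every library, and its call as lower in GFP- than in GFP+ Pdgfrα+ cells (-1.40, SE 0.36, adjusted p = 0.0456) was lost in 10 of 12 alternatives with a test. These were the replicate block (0.0565), a pseudocount of 0.1 (0.107), median centring (0.0517), voom (0.0872), edgeR (0.184), only the compared populations (0.0986) and leaving out any single library of the pair (0.0953 to 0.23).

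Of 10 receptor genes, 8 had values. Called higher in GFP- Pdgfrα+ cells were 0 against GFP+ Pdgfrα+ (2.13% of all genes), 0 against GFP- Pdgfrα- (32.9%) and 0 against GFP+ Pdgfrα- cells (14.3%). Called lower were 0 (3.22%), 5 (26.8%) and 2 (13.5%). *C1qbp*, a mostly mitochondrial protein that can bind C1q, had 20.0 and 24.2 in GFP- Pdgfrα+, 34.1 and 20.3 in GFP+ Pdgfrα+, 67.1 and 49.8 in GFP+ Pdgfrα- and 179 and 160 in GFP- Pdgfrα- cells (-2.88, SE 0.24, adjusted p = 6.58e-07 for GFP- Pdgfrα+ against GFP- Pdgfrα- cells). *Cd93*, an endothelial and myeloid surface gene, was at 6.43 and 9.06 in GFP- Pdgfrα+ cells against 35.8 and 65.2 in GFP+ Pdgfrα- cells (-2.51, SE 0.44, adjusted p = 0.00117). The integrin gene *Itgb2*, a leukocyte subunit of complement receptors, had 8.76 and 13.6 in GFP- Pdgfrα- cells and at most 1 read in each Pdgfrα+ library (-3.22, SE 0.40, adjusted p = 1.89e-05 between the GFP- populations).

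Its partner *Itgam* had 8.76 and 7.66 in GFP- Pdgfrα- cells against 1.13 and 1.63 in GFP- Pdgfrα+ cells (-1.96, SE 0.58, adjusted p = 0.0111), a call lost without GFP- Pdgfrα+ replicate 1 (0.0697) or GFP- Pdgfrα- replicate 1 (0.0514), and with a pseudocount of 0.1 (0.0622). *Gpr77*, the second C5a receptor gene, had 3.02 and 3.18 against 0.630 and 1.34 (-1.07, SE 0.38, adjusted p = 0.0277), lost without GFP- Pdgfrα+ replicate 1 (0.157) or GFP- Pdgfrα- replicate 1 (0.0871) or 2 (0.104), and with a pseudocount of 0.1 (0.0501), edgeR (0.0928) or DESeq2 (0.226). The anaphylatoxin receptor gene *C3ar1*, which binds the fragment released from C3, did not exceed 2.16 in any library.

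**Figure D2:**
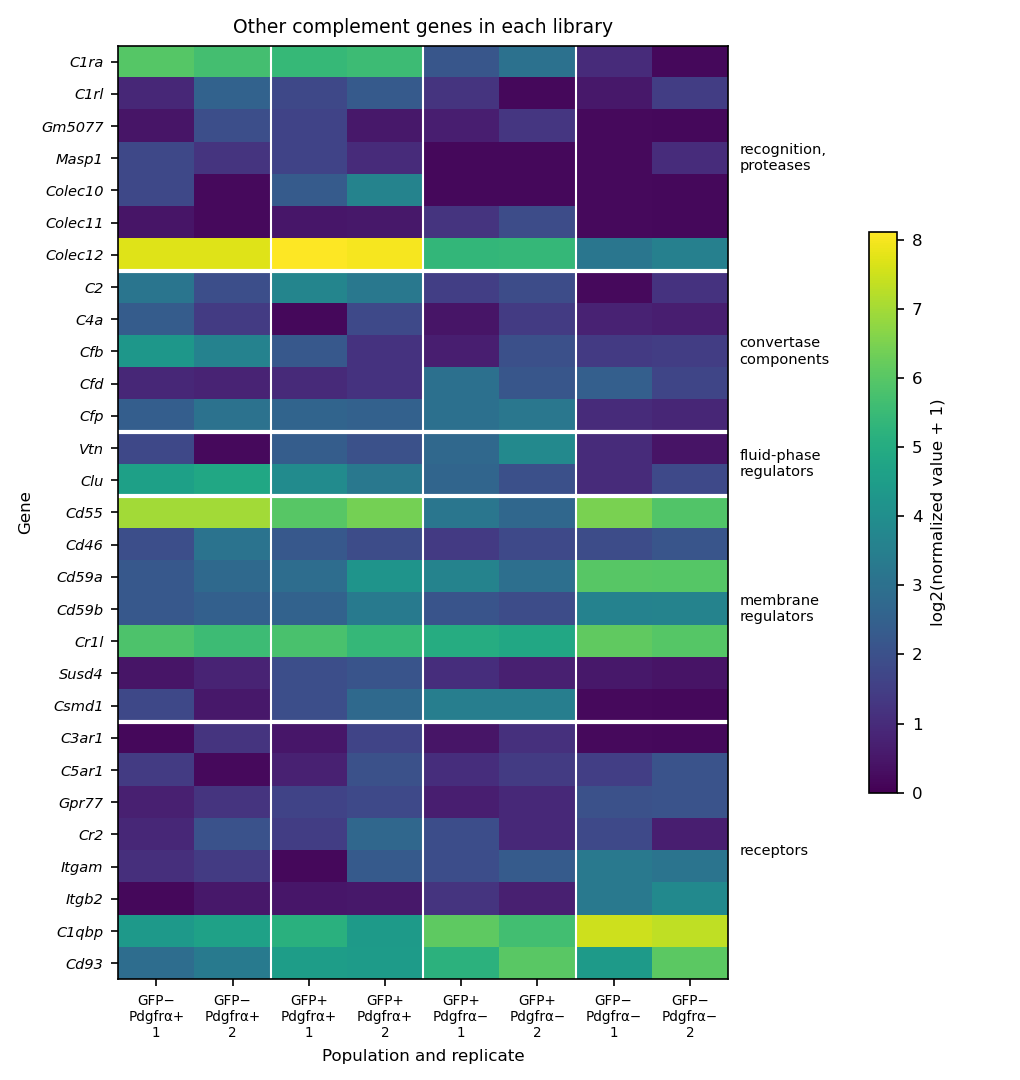
Heat map of log2(normalized value + 1) for other complement genes with values, in rows by role, across the 8 libraries in columns by population and replicate. *Cd55* is low only in GFP+ Pdgfrα- cells, and *C1qbp* and *Cd59a* are highest in GFP- Pdgfrα- cells.

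Markers of other cells moved with the populations. The 5 erythroid markers summed to 6771 and 12128 in GFP- Pdgfrα- cells and to between 24.7 and 88.3 in the other 6 libraries, led by the globin gene *Hbb-b1* at 4362 and 7619. The 6 macrophage and blood cell markers with values, of 7 listed, summed to between 8.01 and 48.1 in the 8 libraries, and the most abundant, the lysozyme gene *Lyz2*, did not exceed 25.8. Their sum was 22.7 and 10.99 in GFP- Pdgfrα+ and 8.01 and 15.2 in GFP+ Pdgfrα+ cells, and *Ptprc*, which encodes CD45, had 0 reads in both libraries of the former. *Lyz2* had 16.5 and 5.198 in the former and 1.52 and 2.44 in the latter (log2 difference 1.82, SE 0.45, adjusted p = 0.0374). It was the only one of the 6 that was called, where 2.13% of all genes were called higher and 3.22% lower. The median log2 difference of the 6 was -0.17 against -0.00 over all genes. Without *Lyz2* the sums were 6.18 and 5.79 in GFP- Pdgfrα+ and 6.49 and 12.8 in GFP+ Pdgfrα+ cells. The 7 hepatocyte genes listed were not analysed here. In GFP+ Pdgfrα- cells the pericyte and smooth muscle markers (2161 and 2796), muscle markers (626 and 705) and Schwann cell markers (406 and 380.1) had their highest sums. The part of these cell types in the levels of the complement genes was not tested.

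Of 15 acute phase and inflammatory response genes with values, 0 were called higher in GFP- than in GFP+ cells among Pdgfrα+ populations (2.13% of all genes) and 4 were lower (3.22%), with a median log2 difference of -0.10 against -0.00 over all genes. The list had 11 higher (32.9% of all) and 1 lower gene (26.8%) against GFP- Pdgfrα- cells, and against GFP+ Pdgfrα- cells 4 were higher (14.3%) and 3 lower (13.5%). The 4 most abundant were *Il6st*, *Lifr*, *Stat3* and *Cp*. The ferroxidase gene *Cp* measured 39.0 and 39.6 in GFP- Pdgfrα+ and 173 and 150 in GFP+ Pdgfrα+ cells (-2.01, adjusted p = 0.000217), opposite to *C3* and *C4b*. The shared cytokine receptor gene *Il6st* was at 615 and 598 in GFP- Pdgfrα+ and 615 and 688 in GFP+ Pdgfrα+ cells (-0.10, adjusted p = 0.884). Of 20 interferon response genes, 0 were higher (2.13% of all) and 2 lower (3.22%) between the Pdgfrα+ populations, with a median of 0.14. They numbered 5 higher (32.9%) and 7 lower (26.8%) against GFP- Pdgfrα- cells, and 4 (14.3%) and 2 (13.5%) against GFP+ Pdgfrα- cells. Of 11 other serpin genes, 0 were higher (2.13% of all) and 4 lower (3.22%) between the Pdgfrα+ populations, with a median of -0.92, and the most abundant, *Serpinf1*, had 349 and 308 against 761 and 648 (-1.10, adjusted p = 0.00331). Serpin genes numbered 6 higher (32.9%) and 0 lower (26.8%) against GFP- Pdgfrα- cells, and against GFP+ Pdgfrα- cells 4 (14.3%) and 0 (13.5%).

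Genes within 100 kb of the 4 were read from the same annotation. Next to *C4b*, the matrix gene *Tnxb* lies 8565 bases away on the opposite strand, with means of 1303, 822, 47.7 and 2.37 in GFP- Pdgfrα+, GFP+ Pdgfrα+, GFP+ Pdgfrα- and GFP- Pdgfrα- cells, an order shared with *C4b*. Its log2 difference between the Pdgfrα+ populations was 0.66, and it was called higher in GFP- cells. Also near *C4b*, *Cyp21a1*, a steroid hydroxylase gene, had means of 3.91 and 1.56 in the Pdgfrα+ populations and 0.125 and 0.131 in the others. Near *C3*, *Gpr108* had means of 38.5, 37.7, 31.1 and 21.8 in the same order of populations, and *Trip10*, 21315 bases away, had 38.9, 19.3, 25.2 and 1.62, highest in GFP- Pdgfrα+ cells like *C3* but not called against either GFP+ population. Near *Serping1*, *Ube2l6* was highest in GFP- Pdgfrα- cells, at a mean of 137 against 9.71 to 11.3 in the others, where *Serping1* was lowest. Of all 31 such genes with values, 1, *Tnxb*, was higher (2.13% of all genes) and 1, *Tmx2* near *Serping1*, was lower (3.22%) in GFP- Pdgfrα+ than GFP+ Pdgfrα+ cells. When set against GFP- Pdgfrα- cells, 6 were higher (32.9%), namely *Tnxb*, *Cyp21a1*, *Cyp21a2-ps*, *Gpr108*, *Trip10* and *C1ra*, and 15 were lower (26.8%): *Vav1*, *Skiv2l*, *Phb2*, *Ptpn6*, *Emg1*, *Lpcat3*, *Clstn3*, *Slc43a1*, *Timm10*, *Ube2l6*, *Clp1*, *Med19*, *Ypel4*, *Tmx2* and *2700094K13Rik*. Not called in this comparison were *C4a*, *Atf6b*, *Ppt2*, *Prrt1*, *Fkbpl*, *Dom3z*, *Stk19*, *C1rl*, *Gm5077* and *Zdhhc5*.

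The bases just before the transcription start are shown for *C3* and *C1s*, the only 2 of the 4 genes found in the RefSeq promoter table (GRCm38.p6), the latter under the symbol *C1s1*. The gene models above are on NCBIM37, and these RefSeq starts were not compared with the ends of those models. The 250 bases upstream of each start were searched on both strands for TTCNNNGAA (STAT), GAAANNGAA (IRF), the κB consensus and TTGCNNAA (C/EBP). Matches are in capitals, 5′ to 3′ on the strand of the gene, at chr17:57228137-57228386 (minus strand) for *C3* and chr6:124542360-124542609 (minus strand) for *C1s*.
C3: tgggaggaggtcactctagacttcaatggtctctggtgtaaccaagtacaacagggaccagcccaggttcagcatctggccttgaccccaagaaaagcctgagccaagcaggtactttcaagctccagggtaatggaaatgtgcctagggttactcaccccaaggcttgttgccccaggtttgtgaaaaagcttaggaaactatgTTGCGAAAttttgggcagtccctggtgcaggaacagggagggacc
C1s: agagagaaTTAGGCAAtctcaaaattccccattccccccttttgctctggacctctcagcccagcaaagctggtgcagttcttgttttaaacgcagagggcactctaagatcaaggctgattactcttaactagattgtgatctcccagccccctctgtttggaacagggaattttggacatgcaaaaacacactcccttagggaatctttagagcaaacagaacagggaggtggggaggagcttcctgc
Each held 1 match, to the C/EBP letters, at 45 to 38 bases before the start in *C3* and, on the opposite strand, at 242 to 235 bases before it in *C1s*. Of 32851 promoter windows of this length in the table, 9.56% hold such a match, 7.02% one for STAT, 7.13% one for IRF and 7.25% one for κB. A match describes letters and shows no binding. A second start of *C1s* in the table, with its window at chr6:124542322-124542571 (minus strand), held none.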

How the data were processed

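Total RNA of 8 libraries was amplified to cDNA. The authors trimmed reads with cutadapt, quantified them with RSEM on NCBIM37, filtered low genes and normalized with limma voom. The deposited signal is linear and equals (reads + 0.5) per 1e6 of an effective library size, so reads could be recovered. Here log2(value + 1) was fitted with limma 3.58.1 in R 4.3.3, with a term for each population and 4 degrees of freedom left, and adjusted over 15880 genes (Benjamini-Hochberg). With 2 libraries against 2, an exact test cannot fall below p = 0.333, so calls rest on the pooled variance. The fits were tested on simulated data.

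Alternatives were a pseudocount of 0.1, a low-value filter, median centring, quantile normalization, voom, edgeR 4.0.16 and DESeq2 1.42.0 on recovered reads, only the compared populations, the replicate block, and leaving out libraries. The comparison of replicates and its alternatives were chosen after seeing the data. Because the series text describes each set as pooled littermates, equal numbers were taken to mark a shared pool. Deviations of equally numbered libraries correlated at 0.00433 to 0.0812.

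Members and lists were chosen with earlier results of these data known. Complement genes were named when called in a comparison or with a mean of at least 10, except for 1 that is counted but not reported here; up to 4 genes of other lists, 5 similar genes per member and genes within 100 kb were named. *C4a*, *Gm5077* and *C3ar1*, and the genes called between replicates, were named after their values were seen. Tables were made with pandas 2.3.3 and numpy 2.4.6, and figures with matplotlib 3.10.9, in Python 3.11.15.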

Additional observations from a re-analysis of the deposited data

Results flagged for a closer look

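For 13 of the 30 complement genes tested, the log2 difference between Pdgfrα+ and Pdgfrα- cells differed between GFP- and GFP+ cells, by the interaction term of the limma fit. Of all genes 44.3% were called for this term, so nothing is read from the count of 13. The term is the difference with Pdgfrα among GFP- cells minus that among GFP+ cells. It was positive for *C1ra* (2.34), *Cfp* (2.35), *Cfb* (2.15), *Csmd1* (2.07), *Clu* (2.04) and *Colec12* (1.70). It was negative for *Cd59a* (-3.77), *Itgb2* (-2.76), *Cd55* (-2.48), *Cd59b* (-2.21), *Gpr77* (-1.97), *C1qbp* (-1.78) and *Cr1l* (-0.98). The call was lost in 11 of 16 alternatives for *Cfb*, 7 for *Csmd1*, 4 for *Clu*, 2 for *Cr1l* (adjusted p = 0.0616 and 0.0518, without GFP- Pdgfrα+ replicate 2 and GFP+ Pdgfrα+ replicate 1), 2 for *Itgb2* (0.0667 with edgeR, 0.081 with DESeq2) and 1 for *Gpr77* (0.114 with DESeq2). For *Cfb* these included median centring (0.0673), quantile normalization (0.107), voom (0.122), edgeR (0.0664) and DESeq2 (0.0945), and for *Csmd1* median centring (0.0618). The other 7 kept the call in all. *Csmd1* was not called within either GFP class. GFP- Pdgfrα- cells, which enter this term, also held the erythroid markers. The part of cell composition in these differences was not tested.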

How the results depend on the processing

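No called complement gene changed direction; for other genes only the counts of calls were compared. Of 764 tested alternatives of the called complement genes, 646 kept the call and 118 lost it. The balance of all calls did turn under median centring, from 5226 higher and 4250 lower to 3913 and 5720 against GFP- Pdgfrα- cells, and from 3999 and 3032 to 2989 and 4427 for the difference of the Pdgfrα contrasts. Quantile normalization turned these too, to 4249 higher and 5086 lower and to 3306 and 3307. It also turned the balance of GFP- Pdgfrα+ against GFP+ Pdgfrα- cells, from 2277 higher and 2150 lower to 2241 and 2408. Between the GFP+ populations the balance turned from 2080 and 1768 to 1986 and 2102. Among the 4 genes described without a test, the log2 difference between the Pdgfrα+ populations changed sign for *C1s* (-0.13 to 0.05) and *Serping1* (-0.04 to 0.31), whose libraries overlap, and ranged from 1.66 to 2.84 for *C3* and 2.15 to 2.97 for *C4b*. Against GFP- Pdgfrα- cells it ranged from 4.81 to 5.58 for *C1s*, 4.88 to 5.51 for *Serping1*, 4.79 to 7.44 for *C4b* and 1.57 to 3.51 for *C3*. The complement genes called between the Pdgfrα+ populations numbered 3, but 1 with a pseudocount of 0.1 and 1 to 2 without single libraries, and all genes called there numbered 849, but 246 to 517 without single libraries. Against GFP+ Pdgfrα- cells, 4427 genes were called in GFP- Pdgfrα+ cells, and 2757 to 3077 without single libraries. Between the GFP+ populations 11 complement genes were called, 6 with DESeq2 and 6 to 8 without single libraries, and 3848 of all genes, 2158 to 3047 without single libraries. A lone library was assumed to vary like the other groups, and fewer libraries leave 3 residual degrees of freedom.

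The replicate block gave 924 calls between the Pdgfrα+ populations, with 3 complement genes, and 9541 (16), 4530 (13) and 3925 (12) in the other comparisons. It ended only the call of *Susd4* between the Pdgfrα+ populations. As the count there stayed at 3, another complement gene gained a call. Between the GFP+ populations the count of complement genes rose from 11 to 12. The genes so gained are not reported here. The 3 genes called between replicates became 1 with a pseudocount of 0.1, 6 with median centring, 14 with voom, 8 with edgeR, 12 with DESeq2, 1 without the GFP- Pdgfrα+ libraries and 5 without the GFP- Pdgfrα- libraries. The causes were not tested. Depth limits genes near 3 reads, and 2 pools per population limit every call.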
